A study of Arabidopsis thaliana with 38 samples.

Results

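The 45 genes described here are the nuclear genes of Arabidopsis thaliana that encode the light-harvesting antenna (LHCA and LHCB), subunits of photosystem I (PSA) and photosystem II (PSB), the small subunit of Rubisco (RBCS) and Rubisco activase (RCA). They were taken from a list of locus identifiers set by the function of the product, and all 45 were among the 27416 genes of both deposited count tables. The antenna class held 18 genes (4 LHCA and 14 LHCB), photosystem I 12, photosystem II 10 and the Rubisco class 5, of which 4 were RBCS genes. The study asked how serine 28 of histone H3 bears on the transcriptome and on histone marks.

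The RNA libraries came from 4 genotypes named in the labels as H3.1S28A, H3.1, H3.3S28A and H3.3, with 2 libraries of each and plants 2 weeks old. H3.1 is the histone H3 form deposited mainly with DNA replication, H3.3 is the form deposited independently of it, and S28A stands for serine 28 exchanged for alanine. Each S28A genotype was compared with the unmutated form of the same histone. The labels do not say how the plants were made, which endogenous histone genes they still carry, or whether the 2 libraries of a genotype came from separate plants, so the p-values measure only the spread between these libraries. Gene counts cannot show the amino acid exchange itself. The labels name seedlings as the source, while the text on RNA extraction names closed buds, and the growth text covers long and short days without saying which was used.

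Antenna proteins bind chlorophyll and pass light energy to photosystem II, which splits water, and to photosystem I, which reduces ferredoxin, and Rubisco then fixes carbon dioxide in the Calvin-Benson cycle. The core of each photosystem and the large subunit of Rubisco are made in the chloroplast, while the 45 genes described here are transcribed in the nucleus and their proteins are imported. In green tissue they are among the most abundant transcripts, and their expression responds to light, the circadian clock and signals from the chloroplast.

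Total counts per library ran from 12865999 to 24449528. The 45 genes took 21.9% and 21.6% of all counts in the H3.1S28A libraries, against 20.2% and 20.5% in the H3.1 libraries. They took 23.7% and 22.3% in the H3.3S28A libraries, against 23.5% and 22.4% in the H3.3 libraries. The lowest count of any of them in any library was 501 (LHCB4.3) and the highest 673477 (LHCB1.3), so all 45 entered every test and counting error was small beside the spread between libraries. Flower and anther markers were summed in CPM, which is counts scaled to a common library size, to check the tissue. Their 9 genes summed to 66.3 and 10.6 CPM in H3.1S28A, against 2.81 and 2.69 CPM in H3.1, and to 186 and 177 CPM in H3.3S28A, against 0.662 and 0.846 CPM in H3.3. MS1, an anther regulator, was at 0 in every library, and root markers summed to between 0.485 and 3.96 CPM with PLT2 and EXPA7 at 0. In bulk tissue, fewer green cells and less RNA of these genes per cell cannot be told apart.

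The class sums separated the pairs of genotypes. Antenna genes took 11.5% ± 0.332 of all counts in H3.1S28A and 10.5% ± 0.0741 in H3.1 (mean ± SD, n = 2 each), while they took 11.6% ± 0.517 in H3.3S28A and 12.7% ± 0.461 in H3.3. Photosystem II genes took 3.13% ± 0.116 in H3.1S28A and 2.86% ± 0.0449 in H3.1, and 3.78% ± 0.0483 in H3.3S28A and 2.97% ± 0.123 in H3.3. The antenna share was therefore higher than in the unmutated form in the H3.1 pair and lower in the H3.3 pair, with no overlap between libraries in either, whereas the photosystem II share was higher in both pairs. Much of the photosystem II rise in the H3.3 pair came from PSBR. It gave 203389 and 134213 of 752191 and 481497 class counts in H3.3S28A, against 120743 and 101732 of 600824 and 545988 in H3.3. Photosystem I genes took 2.70% ± 0.00280 in H3.1S28A and 2.50% ± 0.0152 in H3.1, and 2.90% ± 0.0499 in H3.3S28A and 2.71% ± 0.107 in H3.3. The Rubisco class took 4.45% ± 0.272 in H3.1S28A and 4.51% ± 0.261 in H3.1, and 4.75% ± 0.409 in H3.3S28A and 4.53% ± 0.0473 in H3.3, and its libraries overlapped in both pairs. With 2 libraries against 2, an exact permutation test cannot give a two-sided p below 0.333, so these shares are given without a test.

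**Figure D1:**
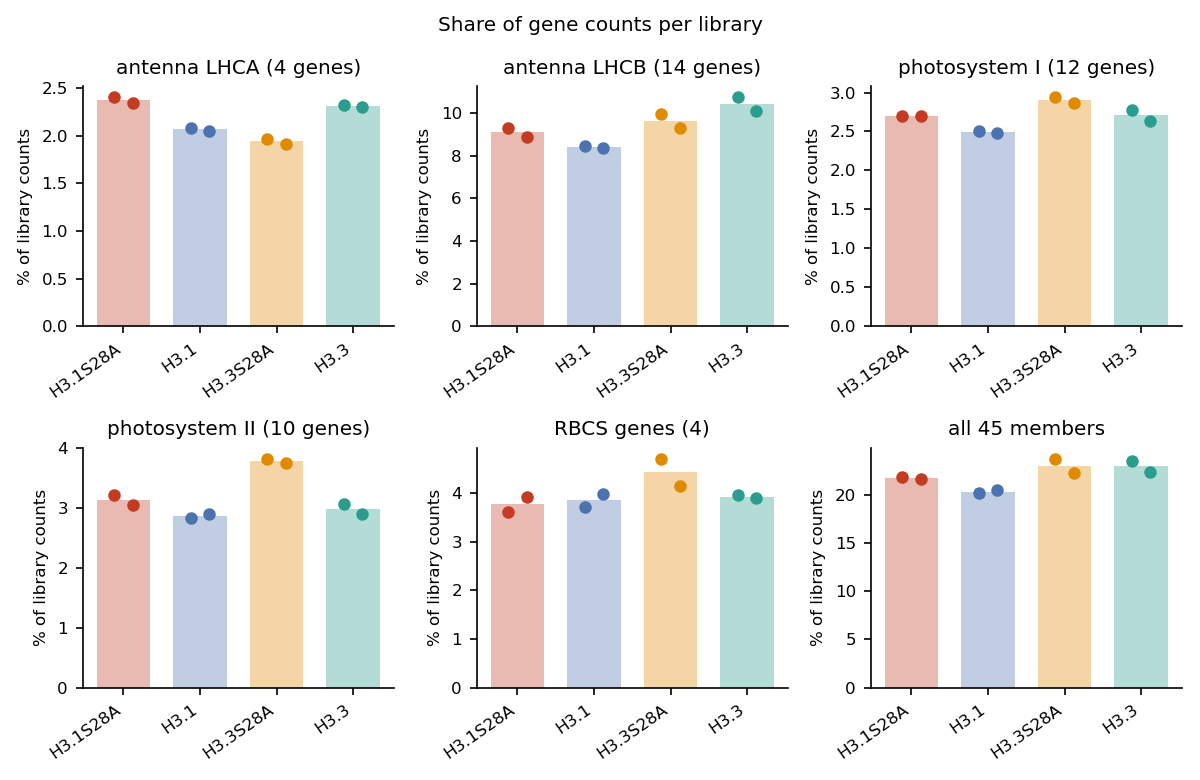
Share of all gene counts taken by each class in each library (y axis, percent of library counts; bars are means of 2 libraries and points are single libraries). The LHCA and LHCB shares are higher in H3.1S28A than in H3.1 and lower in H3.3S28A than in H3.3, while the photosystem II share is higher in both S28A genotypes, at 3.78% in H3.3S28A against 2.97% in H3.3.

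Ratios between class sums within a library do not depend on how libraries are scaled. The antenna sum was 3.13 and 2.99 times the photosystem II sum in the H3.3S28A libraries, against 4.26 and 4.3 times in the H3.3 libraries. The same ratio was 3.64 and 3.69 in the H3.1S28A libraries and 3.73 and 3.61 in the H3.1 libraries. The H3.3S28A libraries therefore stood below all others in antenna counts per photosystem II count, while the H3.1 pair overlapped. The antenna sum over the photosystem I sum was 4.06 and 3.91 in H3.3S28A, against 4.69 and 4.71 in H3.3, and it was 4.33 and 4.16 in H3.1S28A, against 4.2 in both H3.1 libraries. The photosystem II sum over the photosystem I sum was 1.3 and 1.31 in the H3.3S28A libraries, against 1.1 in both H3.3 libraries. Within the antenna, the LHCB sum was 3.87 and 3.79 times the LHCA sum in H3.1S28A, against 4.05 and 4.1 times in H3.1. It was 5.07 and 4.86 times in H3.3S28A, against 4.63 and 4.39 times in H3.3, so this ratio was below the unmutated form in the H3.1 pair and above it in the H3.3 pair, with no overlap in either.

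In the comparison of H3.1S28A with H3.1, genes were tested one by one with edgeR's quasi-likelihood test, and a gene was called when its Benjamini-Hochberg adjusted p over all tested genes was below 0.05. Of the 45 genes, 16 rose, 0 fell and 29 were not called. Among all 18974 genes tested, 13.5% were called, 8.23% as higher and 5.26% as lower. The median log2 fold change of the 45 genes was 0.27, against -0.01 for all tested genes. An unadjusted p below 0.05 was found for 26 of the 45, for 5511 of all 18974 genes and for 672 of the 1619 with a mean of at least 100 CPM. Most of the 45 are abundant, and among the 1619 tested genes with a mean of at least 100 CPM, 325 rose and 76 fell with a median of 0.09. DESeq2 called 22 of the 45 higher and 0 lower. With library totals in place of TMM scaling, the median of all tested genes moved to -0.11 and the split for the 45 genes was 13 higher and 2 lower. The count depended on both H3.1S28A libraries, with 5 called higher without replicate 1 and 6 without replicate 2, and it was 24 without H3.1 replicate 2.

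The antenna genes gave 9 of the 16 rises in H3.1S28A. LHCB5 (AT4G10340), which encodes a minor antenna protein between photosystem II and its major antenna, had 7670 and 7433 CPM in H3.1S28A, against 4689 and 4752 CPM in H3.1. Both H3.1S28A libraries stood above both H3.1 libraries, with a log2 fold change of 0.68 (SE 0.09, edgeR adjusted p = 0.000481). LHCB6 (AT1G15820), another minor antenna gene, had 5198 and 4904 CPM in H3.1S28A, against 3720 and 3918 CPM in H3.1 (log2 fold change 0.40, SE 0.09, edgeR adjusted p = 0.0126). Of the major antenna of photosystem II, LHCB2.1 (AT2G05100) rose with 4319 and 3872 CPM in H3.1S28A, against 2903 and 3110 CPM in H3.1 (log2 fold change 0.45, SE 0.10, edgeR adjusted p = 0.00982). Smaller rises were called for LHCB3 (log2 fold change 0.38), LHCB1.5 and LHCB2.2 (both 0.32) and LHCB2.3 (0.31). Of the photosystem I antenna, LHCA3 and LHCA4 rose, with log2 fold changes of 0.39 and 0.33, and LHCA1 and LHCA2 were not called at 0.21 and 0.29. LHCB1.3 (AT1G29930), the most abundant of the 45 by count, had 24631 and 23592 CPM in H3.1S28A, against 23684 and 24341 CPM in H3.1, and the genotypes overlapped (log2 fold change 0.01). LHCB4.1 likewise overlapped, at 0.00. All 18 antenna log2 fold changes were above 0 with TMM scaling, while those of LHCB1.1, LHCB1.3, LHCB4.1 and LHCB4.3 were below 0 with library totals. There were 7 calls among the 18 antenna genes with library totals, 2 after removal of the trend with gene span, 1 without H3.1S28A replicate 1 and 2 without H3.1S28A replicate 2.

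Among photosystem I genes, 4 of 12 rose in H3.1S28A. The largest change of all 45 genes was that of PSAK (AT1G30380), a membrane subunit on the antenna side, with 2424 and 2432 CPM in H3.1S28A, against 1360 and 1190 CPM in H3.1. Its log2 fold change was 0.93 (SE 0.10, edgeR adjusted p = 0.000123), the libraries of the genotypes lay far apart, and it was 0.75 to 1.03 across the 13 alternative settings. PSAO (AT1G08380), which lies at the docking site of the mobile antenna, had 3996 and 3714 CPM in H3.1S28A, against 2402 and 2437 CPM in H3.1 (log2 fold change 0.67, SE 0.09, edgeR adjusted p = 0.000614). PSAN (AT5G64040), a lumenal subunit on the plastocyanin side, had 1810 and 2090 CPM in H3.1S28A, against 1315 and 1220 CPM in H3.1 (log2 fold change 0.62, SE 0.10, edgeR adjusted p = 0.00195). PSAH2 rose by a log2 fold change of 0.38. These rises were not shared by the whole complex. PSAE-1 (AT4G28750), a stromal subunit, had 2649 and 2496 CPM in H3.1S28A, against 2899 and 2986 CPM in H3.1, and was not called (log2 fold change -0.19). PSAG (-0.10) and PSAH-1 (-0.01) also had values below 0 and were not called. PSAL (AT4G12800), the photosystem I gene with the highest count, had 4162 and 4001 CPM in H3.1S28A, against 3528 and 3903 CPM in H3.1, and was not called at 0.14.

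Of the 10 photosystem II genes, 2 rose in H3.1S28A. PSBW (AT2G30570), a small membrane subunit, had 2998 and 2859 CPM in H3.1S28A, against 1917 and 1862 CPM in H3.1 (log2 fold change 0.63, SE 0.09, edgeR adjusted p = 0.00088). PSBQ-2 (AT4G05180), a lumenal subunit at the oxygen-evolving site, rose by a log2 fold change of 0.33. PSBR (AT1G79040), the photosystem II gene with the highest count, had 6331 and 5829 CPM in H3.1S28A, against 4990 and 5140 CPM in H3.1, with no overlap, and missed the threshold (log2 fold change 0.26, edgeR adjusted p = 0.0794). NPQ4 (AT1G44575) encodes PsbS, which starts the release of excess light energy as heat, and it overlapped with 1824 and 1820 CPM in H3.1S28A, against 1636 and 1996 CPM in H3.1. In the Rubisco class, RBCS3B (AT5G38410) had 10885 and 11801 CPM in H3.1S28A, against 8100 and 9138 CPM in H3.1, and was the only member of that class called (log2 fold change 0.40, SE 0.10, edgeR adjusted p = 0.0178). RBCS1A (AT1G67090), the small subunit gene with the highest count, had 19621 and 21268 CPM in H3.1S28A, against 21550 and 23645 CPM in H3.1, and was not called at -0.14. RCA (AT2G39730), which frees Rubisco from inhibitory sugars, overlapped with 6662 and 7579 CPM in H3.1S28A, against 5670 and 7019 CPM in H3.1. LHCB5, PSAK, PSAN, PSAO and PSBW were called under all 13 alternative settings, and the other 11 calls were each lost under at least 1. The flower and anther marker sum was 66.3 and 10.6 CPM in H3.1S28A, against 2.81 and 2.69 CPM in H3.1. Markers of meristem and dividing cells summed to 40.7 and 51.3 CPM in H3.1S28A, against 64.2 and 68.5 CPM in H3.1, epidermis markers to 619 and 740 CPM in H3.1S28A, against 829 and 865 CPM in H3.1, and vascular markers to 226 and 213 CPM in H3.1S28A, against 165 and 211 CPM in H3.1. Guard cell markers overlapped, with 98.3 and 90 CPM in H3.1S28A, against 96.3 and 87.5 CPM in H3.1. Of the 4 epidermis markers 1 was called lower and 0 higher, with a median log2 fold change of -0.05. Of the 4 meristem and dividing cell markers tested 2 were called lower and 0 higher, and of the 5 vascular markers 0 were called. The part of these markers in the changes was not tested.

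**Figure D2:**
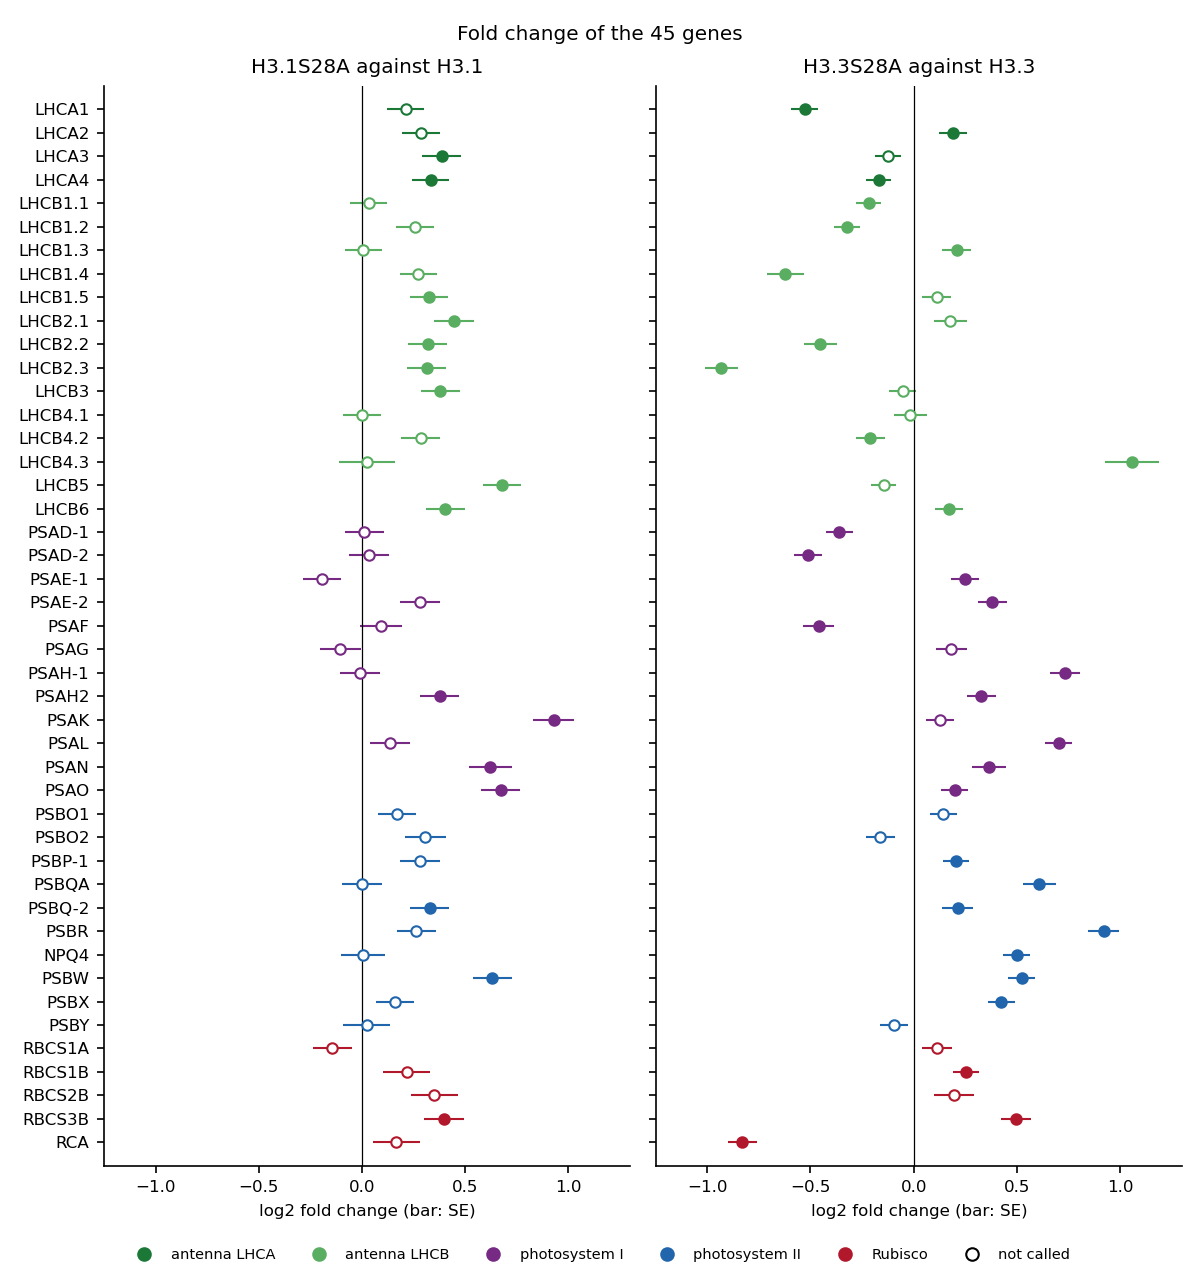
Log2 fold change of each of the 45 genes (x axis; points are estimates of edgeR, bars are 1 SE, filled points were called at an adjusted p below 0.05, colours mark the class), for H3.1S28A against H3.1 on the left and H3.3S28A against H3.3 on the right. On the left 16 genes are called and lie to the right of 0. On the right 20 called genes lie above 0 and 12 below, with LHCB4.3 (1.06) and LHCB2.3 (-0.93) at the ends.

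In the comparison of H3.3S28A with H3.3, members of the group were called in both directions. Of the 45 genes, 20 rose, 12 fell and 13 were not called. Among all 19729 genes tested, 58.4% were called, 28.8% as higher and 29.7% as lower. The median log2 fold change of the 45 genes was 0.17, against 0.01 for all tested genes and 0.20 for the 1494 tested genes with a mean of at least 100 CPM, of which 769 rose and 390 fell. With library totals as the scaling the split was 14 higher and 16 lower. It was 13 higher and 14 lower without H3.3 replicate 2.

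Calls by class ran in different directions, a contrast between classes that was not tested itself. Among all tested genes 28.8% were called higher and 29.7% lower. Of the 1494 with a mean of at least 100 CPM, 769 rose and 390 fell. Of the 18 antenna genes, 4 rose and 8 fell. Of the photosystem II genes, 7 of 10 rose and 0 fell, and 9 of the 10 had an unadjusted p below 0.05. So did 12398 of all 19729 genes tested and 1206 of the 1494 with a mean of at least 100 CPM. Of the photosystem I genes, 7 of 12 rose and 3 fell, and of the 5 Rubisco genes 2 rose and RCA fell. The photosystem I split lay near that of the genes with a mean of at least 100 CPM. With library totals as the scaling, antenna genes gave 1 rise and 10 falls and photosystem II genes 5 rises and 2 falls. With the trend with gene span removed, antenna genes gave 1 rise and 16 falls and photosystem II genes 2 rises and 3 falls.

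LHCB2.3 (AT3G27690), a gene of the major photosystem II antenna, fell most. It had 1110 and 1000 CPM in H3.3S28A, against 2123 and 1901 CPM in H3.3, so both H3.3S28A libraries lay far below both H3.3 libraries (log2 fold change -0.93, SE 0.08, edgeR adjusted p = 3.36e-06). LHCB1.4 (AT2G34430) had 4558 and 3839 CPM in H3.3S28A, against 6865 and 6062 CPM in H3.3 (log2 fold change -0.62, SE 0.09, edgeR adjusted p = 0.000141). LHCB2.2 (AT2G05070) had 1952 and 1802 CPM in H3.3S28A, against 2742 and 2395 CPM in H3.3 (log2 fold change -0.45, SE 0.08, edgeR adjusted p = 0.000593). Smaller falls were called for LHCB1.2 (-0.32), LHCB1.1 (-0.22) and LHCB4.2 (-0.21). In the photosystem I antenna, LHCA1 (AT3G54890) had 4570 and 4251 CPM in H3.3S28A, against 6454 and 6269 CPM in H3.3, with no overlap (log2 fold change -0.53, SE 0.07, edgeR adjusted p = 4.67e-05). LHCA4 fell by 0.17 on the log2 scale. LHCA2 was called higher at 0.19, a call lost under 6 of 13 settings.

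LHCB4.3 (AT2G40100), a variant of a minor antenna gene and the lowest in count of the 45, rose most. It had 77.6 and 62.0 CPM in H3.3S28A, against 29.9 and 37.4 CPM in H3.3 (log2 fold change 1.06, SE 0.13, edgeR adjusted p = 4.83e-05). The libraries of the genotypes did not overlap, and its paralogs LHCB4.1 and LHCB4.2 had log2 fold changes of -0.02, not called, and -0.21. LHCB1.3 had 35241 and 31471 CPM in H3.3S28A, against 30114 and 27649 CPM in H3.3, and was called higher at 0.21 (SE 0.07, edgeR adjusted p = 0.0251), a call lost under 4 of 13 settings. LHCB6 was called at 0.17 with an edgeR adjusted p of 0.0499 and lost under 7 of 13. LHCB5, raised in H3.1S28A, had 6101 and 5964 CPM in H3.3S28A, against 6836 and 6511 CPM in H3.3, and was not called (-0.15).

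Photosystem I genes gave 7 rises and 3 falls. PSAH-1 and PSAL belong to the side where the mobile antenna docks. PSAL had 5247 and 5160 CPM in H3.3S28A, against 3294 and 3100 CPM in H3.3 (log2 fold change 0.70, SE 0.06, edgeR adjusted p = 5.39e-06). PSAH-1 (AT3G16140) had 1654 and 1553 CPM in H3.3S28A, against 1004 and 923 CPM in H3.3 (log2 fold change 0.74, SE 0.07, edgeR adjusted p = 8.88e-06). For both genes the H3.3S28A libraries stood clearly above the H3.3 libraries. PSAH2 (0.33), PSAN (0.36), PSAE-2 (0.38), PSAE-1 (0.25) and PSAO (0.20) were also called higher. Each of these smaller rises lost its call with the span trend removed, where its value lay below 0. The 3 genes called lower encode the stromal subunit that docks ferredoxin, which has a pair of gene copies, and the subunit that docks plastocyanin. PSAD-2 (AT1G03130) had 932 and 873 CPM in H3.3S28A, against 1317 and 1257 CPM in H3.3 (log2 fold change -0.51, SE 0.07, edgeR adjusted p = 8.98e-05). Its copy PSAD-1 had 2073 and 2007 CPM in H3.3S28A, against 2657 and 2582 CPM in H3.3 (log2 fold change -0.36, SE 0.06, edgeR adjusted p = 0.000643). PSAF (AT1G31330) had 2664 and 2327 CPM in H3.3S28A, against 3480 and 3384 CPM in H3.3 (log2 fold change -0.46, SE 0.08, edgeR adjusted p = 0.000365). PSAK and PSAG were not called, at 0.13 and 0.18.

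Of the 10 photosystem II genes, 7 were called higher in H3.3S28A, a count that was 2 with the span trend removed. PSBR, a lumenal subunit that helps to hold the oxygen-evolving proteins, had 10643 and 10648 CPM in H3.3S28A, against 6028 and 5217 CPM in H3.3. Both H3.3S28A libraries stood far above both H3.3 libraries (log2 fold change 0.92, SE 0.07, edgeR adjusted p = 2.21e-06). PSBQA (AT4G21280), of the oxygen-evolving site, had 2676 and 2343 CPM in H3.3S28A, against 1716 and 1578 CPM in H3.3 (log2 fold change 0.61, SE 0.08, edgeR adjusted p = 7.55e-05). PSBW had 3785 and 3874 CPM in H3.3S28A, against 2742 and 2587 CPM in H3.3 (log2 fold change 0.52, SE 0.07, edgeR adjusted p = 4.98e-05). NPQ4 had 2379 and 2440 CPM in H3.3S28A, against 1731 and 1678 CPM in H3.3, without overlap (log2 fold change 0.50, SE 0.06, edgeR adjusted p = 6.71e-05). PSBX (0.42), PSBQ-2 (0.21) and PSBP-1 (0.20) were called too. PSBO1 and PSBO2, copies of the main stabilizing protein of the oxygen-evolving site, were not called and pointed apart, at 0.14 and -0.16. PSBY was not called at -0.09.

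In H3.3S28A RCA fell under all 13 alternative settings, while 2 of the 4 RBCS genes were called higher. Both RBCS calls were lost with the span trend removed, where RBCS1A and RBCS2B lay below 0. RCA had 3487 and 3166 CPM in H3.3S28A, against 5915 and 5908 CPM in H3.3, so the genotypes lay far apart (log2 fold change -0.83, SE 0.07, edgeR adjusted p = 2.48e-06). RBCS3B had 15838 and 13929 CPM in H3.3S28A, against 10837 and 10275 CPM in H3.3 (log2 fold change 0.50, SE 0.07, edgeR adjusted p = 0.000150). RBCS1B rose by a log2 fold change of 0.25, while RBCS1A (0.11) and RBCS2B (0.19) were not called and overlapped between the genotypes. Per 100 RBCS counts there were 7.18 and 7.48 RCA counts in the H3.3S28A libraries, against 15.2 and 15.7 in the H3.3 libraries. In the H3.1 pair the same ratio was 17.8 and 18.7 in H3.1S28A, against 16.2 and 17.8 in H3.1. The sum of the RBCS genes was 0.394 and 0.371 times the antenna sum in H3.3S28A, against 0.304 and 0.314 times in H3.3, and 0.309 and 0.349 times in H3.1S28A, against 0.353 and 0.382 times in H3.1.

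Of the 32 calls in the H3.3 pair, 15 were made under all 13 alternative settings. These were rises of LHCB4.3, PSAH-1, PSAL, PSBR and NPQ4 and falls of LHCA1, LHCB1.1, LHCB1.2, LHCB1.4, LHCB2.2, LHCB2.3, PSAD-1, PSAD-2, PSAF and RCA. The largest effect of a setting came from gene length. Over 19525 genes of the H3.3 pair, the log2 fold change fell with the span of the gene (Spearman rho -0.524, a description across genes with no test), and 43 of the 45 genes had a span below the median. In the H3.1 pair rho was -0.218 over 18780 genes. With that trend removed, 5 of the 45 genes were called higher and 31 lower in H3.3S28A, with a median log2 fold change of -0.33, and 6 higher and 2 lower in H3.1S28A. Flower and anther markers stood at 186 and 177 CPM in H3.3S28A, against 0.662 and 0.846 CPM in H3.3, and epidermis markers at 406 and 362 CPM in H3.3S28A, against 593 and 638 CPM in H3.3. Guard cell markers stood at 83.2 and 81.7 CPM in H3.3S28A, against 41.1 and 38.5 CPM in H3.3. Of the 5 guard cell genes 2 were called higher and 1 lower, with log2 fold changes from -1.49 to 2.59. Much of the higher sum came from AT1G22690, with 945 and 703 counts in H3.3S28A, against 177 and 168 in H3.3. Vascular markers stood at 117 and 109 CPM in H3.3S28A, against 154 CPM in both H3.3 libraries, and markers of meristem and dividing cells at 33.8 and 27.2 CPM in H3.3S28A, against 43 and 50.2 CPM in H3.3. None of these 5 marker sums overlapped between the genotypes. With 2 libraries against 2, 33.3% would not overlap by chance, and 58.4% of all tested genes were called in this pair. Of the vascular genes 1 was called higher and 2 lower, and of the meristem and dividing cell genes 1 higher and 3 lower. All 4 epidermis genes were called lower, and all 7 flower and anther genes tested were called higher. The part of these tissue markers in the changes of the 45 genes was not tested, nor was that of RNA quality, for which the files hold no measure.

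**Figure D3:**
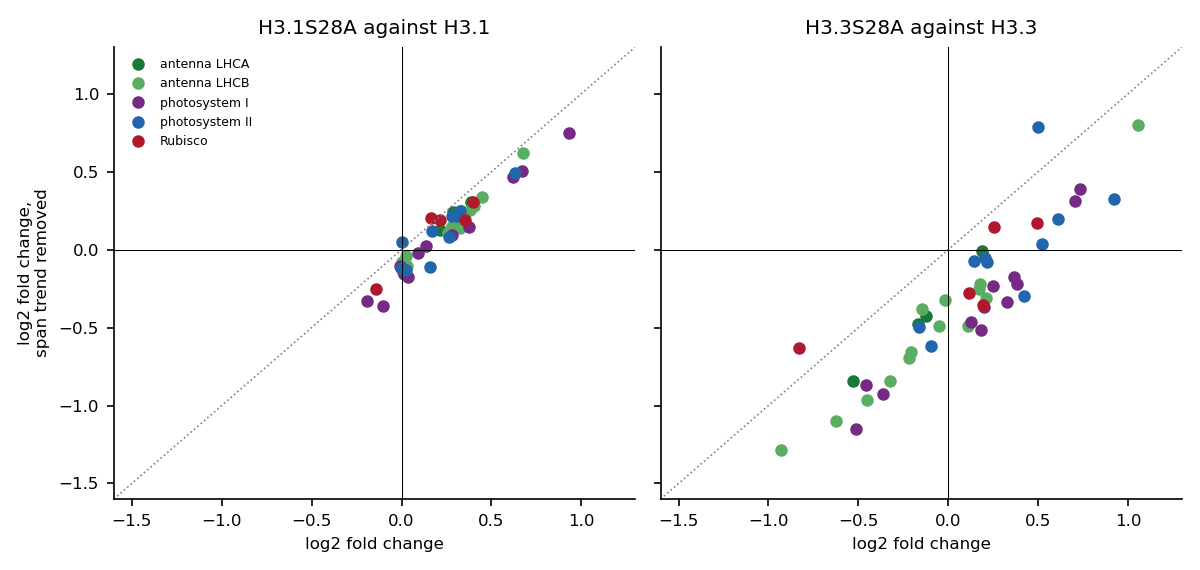
Log2 fold change of the 45 genes from the fit (x axis) against the value after removal of the trend with gene span (y axis), by class, with the dotted line marking equal values. For H3.1S28A against H3.1 the median moves to 0.14 from 0.27, and for H3.3S28A against H3.3 all but 2 points lie below the line and the median moves to -0.33 from 0.17, with NPQ4 and RCA above it.

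The difference between the S28A effects was tested directly on all 8 libraries, with the effect in the H3.3 pair subtracted from that in the H3.1 pair. Of the 45 genes, 18 had a higher and 7 a lower effect in H3.1S28A, against 24.4% and 14.6% of the 20052 genes tested (39.0% in either direction). The median difference was 0.19 for the 45 genes and 0.07 for all tested genes. Among the 1560 tested genes with a mean of at least 100 CPM, 536 were higher and 324 lower, with a median of 0.09. Antenna genes gave 11 of the 18 higher differences and 1 of the 7 lower, photosystem I genes 5 and 3, photosystem II genes 1 and 3, and the Rubisco class 1 and 0. The largest was LHCB2.3, with a log2 difference of 1.27 (SE 0.12, edgeR adjusted p = 6.23e-06), made up of a change of 0.31 in the H3.1 pair and -0.93 in the H3.3 pair. RCA differed by 1.02 (SE 0.14, edgeR adjusted p = 0.000106), LHCB1.4 by 0.92 (SE 0.12, edgeR adjusted p = 8.71e-05) and LHCB5 by 0.85 (SE 0.09, edgeR adjusted p = 1.44e-05). PSAK differed by 0.83, LHCB2.2 by 0.80 and LHCA1 by 0.77. In the other direction, LHCB4.3 differed by -1.0 (SE 0.22, edgeR adjusted p = 0.00310), PSAH-1 by -0.72 (SE 0.11, edgeR adjusted p = 0.000268) and PSBR by -0.63 (SE 0.11, edgeR adjusted p = 0.000655). All 3 of these were called higher in H3.3S28A and were not called in H3.1S28A. The difference was called under all 16 alternative settings for 18 genes, of which 16 were higher in H3.1S28A and LHCB4.3 and PSAH-1 lower. Of the 7 genes called higher in both pairs, PSAO had a called difference (0.50, edgeR adjusted p = 0.00145), and LHCB6, PSAH2, PSAN, PSBQ-2, PSBW and RBCS3B did not, with values between -0.07 for RBCS3B and 0.29 for PSAN. All 7 lost their call in the H3.3 pair with the span trend removed. How many of all tested genes were called higher in both pairs was not counted.

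Near-identical copies allowed a view of which copy supplied a family's counts. The LHCB1 genes LHCB1.1, LHCB1.2 and LHCB1.3 lie next to each other on chromosome 1, LHCB1.4 and LHCB1.5 as well as LHCB2.1 and LHCB2.2 are neighbours on chromosome 2, and RBCS1B, RBCS2B and RBCS3B are neighbours on chromosome 5. How reads that match several copies were counted is not given in the sources used here, so the split between copies is uncertain. LHCB2.1 took 54.0% and 55.7% of the LHCB2 counts in H3.3S28A, against 41.1% and 40.3% in H3.3, and LHCB2.3 took 16.7% and 15.8%, against 25.7% and 26.4%. In the H3.1 pair LHCB2.1 took 44.5% and 42.7% in H3.1S28A, against 41.7% and 41.2% in H3.1. The LHCB2 family therefore drew more of its counts from LHCB2.1 in H3.3S28A than in any other genotype.

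Several gene copies shifted in opposite directions in the pairs, those named next without overlap between libraries. LHCB1.3 took 50.3% and 49.1% of the LHCB1 counts in H3.3S28A, against 42.9% and 42.2% in H3.3, but 42.5% and 42.6% in H3.1S28A, against 46.1% and 45.8% in H3.1. PSAH-1 took 44.0% and 41.6% of the PSAH counts in H3.3S28A, against 35.9% and 36.3% in H3.3, but 34.9% and 35.3% in H3.1S28A, against 40.8% and 41.9% in H3.1. PSBQA took 52.5% and 50.9% of the PSBQ counts in H3.3S28A, against 44.7% and 45.2% in H3.3, but 43.3% and 45% in H3.1S28A, against 48.3% and 51.2% in H3.1. PSBO2 shifted the other way, with 20.6% and 20.5% of the PSBO counts in H3.3S28A, against 24.5% and 23.9% in H3.3, while it took 25.5% and 24.9% in H3.1S28A, against 23% and 23.9% in H3.1. Other copies shifted the same way in both pairs, also without overlap. In the H3.1 and H3.3 pairs the share changed by -1.0 and -2.3 percentage points for LHCB1.1 and by 2.2 and 1.4 for LHCB1.5. That of PSAE-1 changed by -4.8 and -1.4. In the RBCS family, RBCS1A and RBCS3B shifted the same way in both pairs, while RBCS1B and RBCS2B overlapped between the genotypes of the H3.3 pair. RBCS1A took 52.3% and 52.4% of the RBCS counts in H3.1S28A, against 61.6% and 59.9% in H3.1, and 51.0% and 50.5% in H3.3S28A, against 55.9% and 55.6% in H3.3. RBCS3B took 29.0% and 29.1% in H3.1S28A, against 23.2% in both H3.1 libraries, and 32.6% and 32.9% in H3.3S28A, against 27.9% and 27.2% in H3.3. The PSAD copies kept their split in the H3.1 pair, where the libraries overlapped, and the share of PSAD-1 was 2.27 percentage points higher in H3.3S28A than in H3.3.

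**Figure D4:**
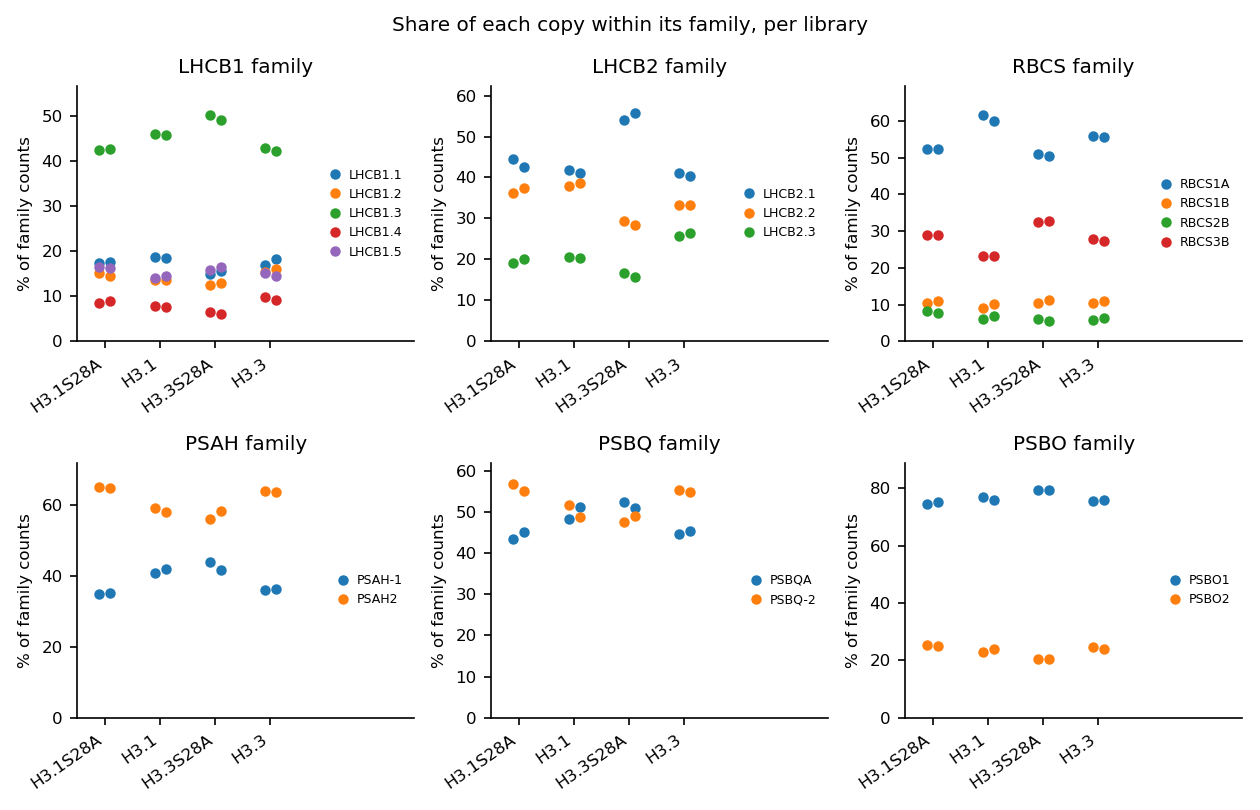
Share of each gene copy in the summed counts of its family (y axis, percent) in each library of the 4 genotypes (x axis, 2 points per genotype). The share of LHCB1.3 is higher in H3.3S28A than in H3.3 and lower in H3.1S28A than in H3.1, as are those of PSAH-1 and PSBQA, while RBCS1A is lower and RBCS3B higher in both S28A genotypes.

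Other genes of photosynthesis were read from 10 lists, to be set against the 8.23% of all tested genes called higher and the 5.26% called lower in H3.1S28A. In H3.1S28A, 8 of 14 genes of electron transport and ATP synthase rose and 0 fell, with a median log2 fold change of 0.35. AT2G26500 was the highest of them, with 726 and 851 CPM in H3.1S28A, against 416 and 379 CPM in H3.1 (log2 fold change 0.99, SE 0.11, edgeR adjusted p = 0.000135), followed by PGR5-LIKE A, of cyclic electron flow, at 0.60. With the span trend removed, 4 of the 14 rose and 1 fell. Of 15 Calvin-Benson cycle genes, 5 rose and 0 fell, led by CP12-2 (0.69) and CP12-1 (0.53), which encode small regulators of the cycle. Of 24 chlorophyll synthesis genes, 5 rose and 0 fell, a count of rises that was 2 without either H3.1S28A library and 1 without H3.1 replicate 1. Of 10 photorespiration genes 3 rose and 0 fell, a count of rises that was 0 without H3.1S28A replicate 1 or H3.1 replicate 1 and 1 without H3.1S28A replicate 2. Among 9 light-harvesting-like genes, LHCA6 (0.87), OHP (0.78) and LHCA5 (0.61) rose, while ELIP1 (-1.31) and ELIP2 (-0.93), which are induced by strong light, fell. Of 18 regulators of photosynthesis genes tested, SIGE rose (0.66) and 0 fell, and none of 7 genes of Rubisco assembly was called by edgeR, where 1 had an unadjusted p below 0.05. Of 13 genes of antenna and photosystem assembly, 1 rose and 1 fell. Of 6 tested genes of chlorophyll breakdown and senescence, 3 rose and 0 fell. SAG13 of that list had 279 and 14 counts in H3.1S28A, against 30 and 13 in H3.1.

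In H3.3S28A genes of chlorophyll synthesis, photorespiration and regulation were called lower more often than higher. The counts below kept the trend with gene span, along which the log2 fold change fell in this pair (Spearman rho -0.524). Of 24 chlorophyll synthesis genes, 13 fell and 6 rose, with a median log2 fold change of -0.27, where 29.7% of all tested genes fell and 28.8% rose. GUN5, the large subunit of the enzyme that puts magnesium into the chlorophyll precursor, had 542 and 425 CPM in H3.3S28A, against 2412 and 2491 CPM in H3.3 (log2 fold change -2.34, SE 0.10, edgeR adjusted p = 6.32e-08). In the H3.1 pair GUN5 had 2793 and 3161 CPM in H3.1S28A, against 2225 and 2600 CPM in H3.1, and was not called (log2 fold change 0.30). HEMA1, at the entry of the pathway, fell by 1.48 on the log2 scale and CH1, which makes chlorophyll b, fell by 1.28. Of 10 photorespiration genes, 8 fell and 2 rose, with a median of -0.44. GLDP1 had 394 and 357 CPM in H3.3S28A, against 1075 and 1059 CPM in H3.3 (-1.51), and CAT2 (-1.27) and SHM1 (-1.05) fell, while AGT rose by 0.62. Of 18 regulators, 11 fell and 3 rose, with a median of -0.72. CCA1 and LHY, the clock genes of the morning, stood at 6.23 and 11.6 CPM and at 5.6 and 6.82 CPM in H3.3S28A, against 53.1 and 50.5 CPM and 33.6 and 32.1 CPM in H3.3, with log2 fold changes of -2.58 and -2.42. SIGA, a sigma factor of the plastid polymerase, fell by 1.27. The regulators that rose were CGA1 (0.76) and the GOLDEN2-LIKE genes GPRI1 (0.54) and GLK2 (0.30), activators of antenna and chlorophyll genes. The hour of harvest is not given in the labels, and its part in these values was not tested.

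Lists closer to the proteins of the 45 genes were mixed in H3.3S28A, and several of their counts lay near the 28.8% of all tested genes called higher and the 29.7% called lower. Of 13 genes of antenna and photosystem assembly, 6 fell and 3 rose, led by STN7, the kinase that moves antenna between the photosystems, with 65.9 and 61.8 CPM in H3.3S28A, against 131 and 135 CPM in H3.3 (-1.06). Of 9 light-harvesting-like genes, 5 rose and 1 fell, with a median log2 fold change of 0.37. Of 7 genes of Rubisco assembly, 4 rose and 2 fell. RbcX1, a Rubisco chaperone, had 166 and 155 CPM in H3.3S28A, against 32.6 and 32.8 CPM in H3.3 (log2 fold change 2.3, SE 0.08, edgeR adjusted p = 1.42e-08), while the chaperonin genes CPN60B (-1.09) and CPN60A (-0.80) fell. Of 14 genes of electron transport and ATP synthase, 7 rose and 2 fell, a split that was 3 and 6 with the span trend removed, and the ferredoxin gene FED A fell by 0.68. Of 15 Calvin-Benson genes, 6 rose and 5 fell, with EMB3119 at 0.97 and PRK, whose product makes the substrate of Rubisco, at -0.81. Chlorophyll breakdown and senescence genes gave 4 rises and 0 falls of 6 tested, with SAG13 at 26.2 and 10.1 CPM in H3.3S28A, against 1.1 and 0.513 CPM in H3.3. The difference between the S28A effects was called higher in H3.1S28A for 14 of 24 chlorophyll synthesis genes and lower for 2. Of 10 photorespiration genes 8 were higher and 0 lower, and of 18 regulators 10 were higher and 1 lower. Among all tested genes 24.4% were higher and 14.6% lower. These counts kept the trend with gene span, along which the difference rose over 19842 genes (Spearman rho 0.418).

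**Figure D5:**
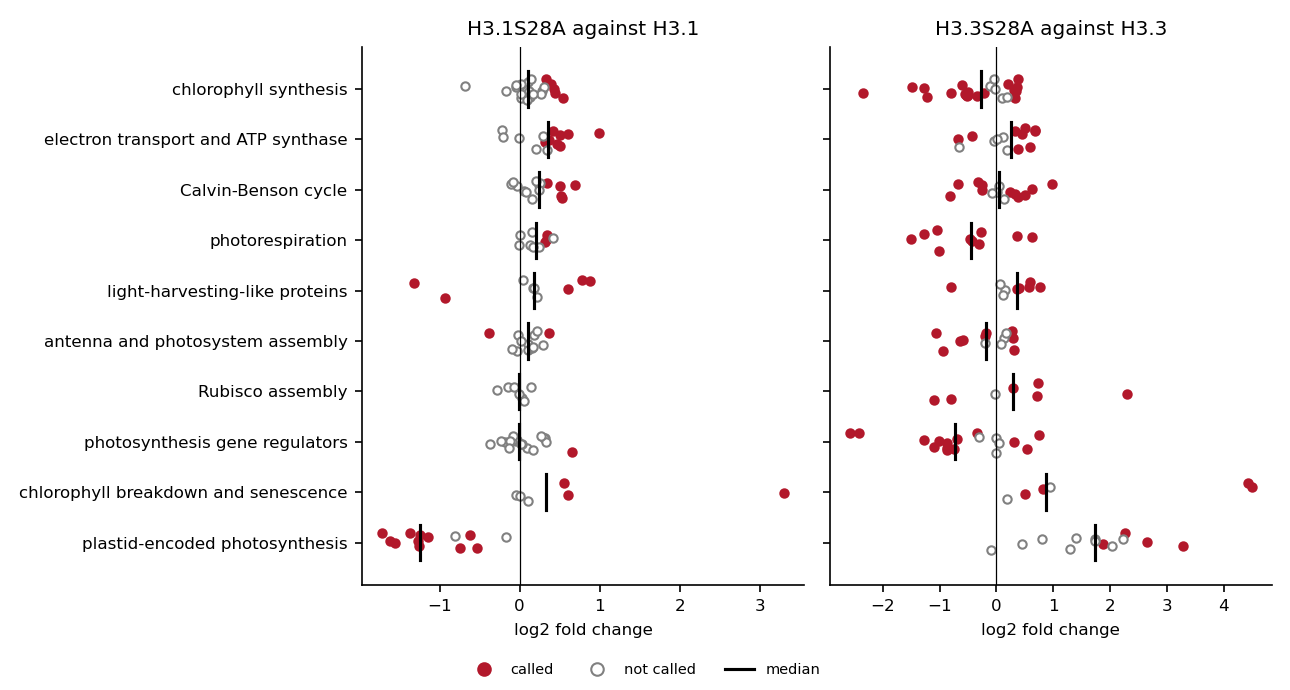
Log2 fold change of single genes (points, filled when called) in each of 10 lists of other photosynthesis genes, with the list median as a bar, for H3.1S28A against H3.1 on the left and H3.3S28A against H3.3 on the right. The medians of chlorophyll synthesis (-0.27), photorespiration (-0.44) and regulators (-0.72) lie below 0 on the right, and the plastid-encoded genes on the right rest on 1 library.

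Plastid-encoded partners of the 45 genes were measured only as residue, since the labels describe selection of poly(A) RNA, which most plastid transcripts lack. The 13 listed genes summed to 358 and 344 CPM in H3.1S28A, against 824 and 459 CPM in H3.1, and 11 of the 13 were called lower and 0 higher, with a median log2 fold change of -1.2. The count was 6 without H3.1 replicate 1, 5 with DESeq2 and 0 with all 8 libraries in the fit. In the H3.3 pair they summed to 247 and 6679 CPM in H3.3S28A, against 605 and 695 CPM in H3.3, and 4 were called higher and 0 lower. DESeq2 called 0, and 13 were higher without H3.3S28A replicate 1. Without H3.3S28A replicate 2, which held 0.858% chloroplast counts against 0.0520% to 0.143% in the other 7 libraries, 12 were called lower and 0 higher. For the 45 nuclear genes, leaving that library out gave 24 rises and 11 falls.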

How the data were processed

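Poly(A) RNA of 8 libraries was analysed, and the chromatin immunoprecipitation libraries were not analysed here. The authors deposited raw counts per gene in 2 tables, each holding a pair of genotypes. The tools HISAT2, Subread and DESeq2 and the build TAIR10 are named per the submitters' processing notes, while versions, annotation, strand setting and multi-mapping treatment are not given in the sources. Columns were mapped to samples by name, the H3.1 columns being read as replicates 1 and 2, and the word new in the H3.1S28A columns is not explained by the labels.

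Each pair was fitted within its own table, and the difference between pairs on all 8 libraries, with edgeR 4.0.16 in R 4.3.3 (TMM, filterByExpr, glmQLFit, glmQLFTest, Benjamini-Hochberg threshold 0.05). The SE of a log2 fold change is its size over the square root of F. Single-gene CPM use TMM scaling and list sums use library totals. Alternatives used DESeq2 1.42.0, other scalings, no count filter, no organelle genes, all 8 libraries, a replicate block, removal of a loess trend on gene span, and each library left out. The fits were run on simulated counts with known folds, a fixed dispersion and no trend with gene span. That run does not measure the accuracy of the calls reported here. Symbols, spans and gene order came from a RefSeq table of TAIR10.1, which held 97.5% of the genes, and coordinates are left out since its build differs from the authors'. RefSeq lists LHCB1.1 to LHCB1.5 under the symbols CAB2, CAB3, CAB1, LHB1B1 and LHB1B2.

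The 45 genes and all lists were chosen with earlier results of these data known. Any of the 45 could be named. Full statistics went to called genes, at most 6 per class and comparison with the largest change, and to the gene of highest count in each class. From each other list at most 3 called genes per direction were named, by size of change.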

Additional observations from a re-analysis of the deposited data

Results flagged for a closer look

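The S28A effect differed between the histone forms by a test of the difference itself (effect in the H3.1 pair less that in the H3.3 pair, log2 scale) for 18 of the 45 genes in the higher and 7 in the lower direction (edgeR's quasi-likelihood test, Benjamini-Hochberg adjusted p below 0.05). Among all 20052 tested genes, 24.4% were called higher and 14.6% lower, so the count in the lower direction lay near that of all genes. Among the 1560 tested genes with a mean of at least 100 CPM, 536 were called higher and 324 lower. As a share, the count in the higher direction lay closer to that of these abundant genes than to that of all genes. The count in the lower direction lay below that of the abundant genes. In the antenna the difference was 1.27 for LHCB2.3, 0.92 for LHCB1.4, 0.85 for LHCB5, 0.80 for LHCB2.2, 0.77 for LHCA1, 0.61 for LHCB1.2, 0.54 for LHCA3, 0.53 for LHCA4, 0.52 for LHCB4.2, 0.46 for LHCB3 and 0.28 for LHCB1.1, and it was -1.0 for LHCB4.3. In photosystem I it was 0.83 for PSAK, 0.58 for PSAF, 0.57 for PSAD-2, 0.50 for PSAO and 0.40 for PSAD-1, against -0.72 for PSAH-1, -0.54 for PSAL and -0.41 for PSAE-1. In photosystem II it was 0.50 for PSBO2, against -0.63 for PSBR, -0.58 for PSBQA and -0.47 for NPQ4. RCA, at 1.02, was the only gene of the Rubisco class with a called difference.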

How the results depend on the processing

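Removal of the trend with gene span changed most. Calls among the 45 genes were then 6 higher and 2 lower in H3.1S28A, 5 higher and 31 lower in H3.3S28A, and 29 higher and 3 lower for the difference between the effects. Of genes called in at least 1 of the fits, signs turned in H3.3S28A for LHCA2 (-0.0096), LHCB1.3 (-0.31), LHCB1.5 (-0.49), LHCB2.1 (-0.22), LHCB6 (-0.25), RBCS1A (-0.28), RBCS2B (-0.36), PSAE-1 (-0.23), PSAE-2 (-0.22), PSAG (-0.52), PSAH2 (-0.33), PSAK (-0.46), PSAN (-0.17), PSAO (-0.37), PSBP-1 (-0.0507), PSBQ-2 (-0.0781) and PSBX (-0.30), and for the difference in PSAE-2 (0.35). Signs of further genes that neither fit called also turned, for 9 genes in H3.1S28A (among them LHCB1.1 at -0.10, LHCB1.3 at -0.14, PSAD-1 at -0.16 and PSBX at -0.11), for PSBO1 (-0.07) in H3.3S28A and for 6 genes in the difference. Genes above 0 then numbered 31 of 45 in H3.1S28A, 9 in H3.3S28A and 38 in the difference. The cause was not tested. Library totals gave 2 lower calls in H3.1S28A and 11 lower differences. Leaving out each library gave 5 to 24 higher and 0 lower calls in H3.1S28A, 13 to 24 higher and 11 to 14 lower calls in H3.3S28A, and 16 to 22 higher and 5 to 8 lower differences. The replicate numbers did not pair the samples (correlation of deviations -0.019 and 0.016 over 17405 genes). With a replicate block the calls were 21 higher and 0 lower, 26 higher and 14 lower, and 19 higher and 8 lower. Class shares moved by less than the spread between libraries when organelle genes were left out of the total. With 2 libraries per genotype, replicate spread weighed more than depth. In H3.3S28A, removal of the span trend moved the calls further than leaving out any library did.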
